A study of Mus musculus with 18 samples.

Results

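The 53 genes described here are interferon-stimulated genes, chosen by gene symbol from general knowledge of the interferon response. The choice was made with earlier results of these data known, so the counts below are not those of an unselected list. Each gene matched 1 of the 54532 genes in the liver RNA-seq tables. The study compared liver gene expression in WT C57BL/6J male mice fed a diet made 99% deficient in riboflavin (vitamin B2, here B2D) or an isocaloric control diet (Ctrl), begun at 4 wk of age. Ctrl (n = 5) and B2D (n = 5) mice were harvested after 1 month of diet and received no drug. Ctrl+FF (n = 4) and B2D+FF (n = 4) mice were on diet for 9 wk and received fenofibrate (FF), an agonist of the nuclear receptor PPARα, by gavage at 300 mg/kg per day in weeks 7 to 9, the last dose coming 2 hr before harvest. All mice were fasted overnight, each gave 1 library, and they are numbered from 1 within a group, the number being only a name. The drug, the longer diet and the separate table of the second experiment go together, so their parts in any difference between the experiments cannot be told apart. Values are FPKM (fragments scaled to gene length and to a size for each library, so that levels of genes of different length can be compared). That size was not the reads on genes, being 17069373 against 15320729 in B2D mouse 2.

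Interferons are secreted proteins that warn cells of viral and other infections. Type I interferons bind the IFNAR receptor, whose kinases JAK1 and TYK2 switch on a complex that holds STAT2 and IRF9 and binds the interferon-stimulated response element (ISRE) in promoters. Type II interferon acts through IFNGR on a different element, the gamma-activated site (GAS), and favours genes for guanylate-binding proteins, immunity-related GTPases and the chemokines CXCL9 and CXCL10. Liver cells of several types carry these receptors and hold a low level of many interferon-stimulated genes without infection.

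The promoters of several of these genes carry the ISRE core, shown here for members whose values are given later. RefSeq promoter windows (GRCm38.p6, 250 bases before to 50 after a start) were matched for 41 of the 53 genes. The ISRE core was searched as GAAANNGAAA on both strands and was in 22 of the 41 genes (53.7%), against 3.99% of the 27025 genes with a window. The GAS, searched as TTCNNNGAA, which reads the same on both strands, was in 10 of the 41 (24.4%), against 9.55% of all genes. Each stretch below runs 5′ to 3′ on the gene's own strand, lies before the RefSeq start and outside annotated exons, and has the ISRE core, in either orientation, in capitals. They are Ifit1 (chr19:34640765-34640833, plus strand), Ifit3 (chr19:34583353-34583436, plus), Oas1a (chr5:120907526-120907565, minus), Bst2 (chr8:71537567-71537622, minus), Igtp (chr11:58199502-58199551, plus) and Cxcl10 (chr5:92349073-92349122, minus).
Ifit1: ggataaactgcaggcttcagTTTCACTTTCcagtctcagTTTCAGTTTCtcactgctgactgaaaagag
Ifit3: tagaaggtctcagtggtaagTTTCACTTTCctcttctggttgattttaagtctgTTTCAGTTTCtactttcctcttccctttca
Oas1a: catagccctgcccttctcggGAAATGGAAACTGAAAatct
Bst2: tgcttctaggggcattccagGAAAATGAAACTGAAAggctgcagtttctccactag
Igtp: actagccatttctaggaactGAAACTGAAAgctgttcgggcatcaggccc
Cxcl10: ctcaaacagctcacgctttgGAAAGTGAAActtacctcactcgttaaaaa
Ifit1 and Ifit3 each held 2 separate cores, while in Oas1a and Bst2 2 matches overlapped. Apol9a and Apol9b had the same 56-base window around their cores. Of the 14 genes that passed the threshold in either comparison below, 10 had a window and 7 of those held the core; Irf7, Oasl1 and Cmpk2 did not. Of the other 31 genes with a window, 15 held it. A match describes the letters in the window and nothing more.

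The libraries held 15320729 to 21898502 reads on genes. Pearson's r of log2(FPKM + 1) between libraries of a group was 0.958 to 0.990, and no library repeated another. The hepatocyte markers were high in every library (summed FPKM 20400 to 49764 for 9 genes), as the liver label says.

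In B2D livers, 11 of the interferon-stimulated genes fell and none rose. They were the transcription factor gene Irf7, the OAS genes Oas1a and Oasl1, the effectors Ifit1, Ifit3, Ifi27, Cmpk2, Rtp4, Apol9a and Apol9b, and the GTPase gene Irgm1. Their group means were 1.53 to 2.63 times lower in B2D than in Ctrl. A gene was tested with limma on log2(FPKM + 1) when its mean FPKM was at least 0.5, and passed at a Benjamini-Hochberg adjusted p under 0.05 over all genes tested, of which 1.94% passed as lower and 0.769% as higher in this comparison. By that filter 49 of the 53 were tested, and Oas1g, Oas3, Mx1 and Gbp6 were not. Over all 53, the mean was lower in B2D for 52 genes and higher for Trim25 alone, with a median ratio of means of 0.692. Among the 49, the median log2 fold change was -0.33 (-0.0013 over the 11574 genes tested), 27 had an unadjusted p under 0.05 with a negative fold (10.1% of all genes tested), and for 9 every B2D mouse lay below every Ctrl mouse (2.89% of all). Of the 49, 3 reached the filter only through the Ctrl mean (Oas2, Oasl2 and Ifi44), and Ifi44 is among the 27. In bulk liver, fewer cells of a type and less RNA per cell cannot be told apart. The count of genes that passed was 5 without B2D mouse 2 or B2D mouse 3, 2 without B2D mouse 4 or Ctrl mouse 2, 3 without Ctrl mouse 1 and 1 without Ctrl mouse 4, and 9 to 12 without any of the other 4. It was 3 after upper-quartile rescaling and 1 with no filter on low values, where 25041 genes were tested.

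In B2D+FF livers, 6 of the interferon-stimulated genes fell and none rose. They were Irf7, the sensor genes Dhx58 and Zbp1, and the effectors Ifit3, Bst2 and Apol9b, with means 1.60 to 3.13 times lower than in Ctrl+FF. In this comparison 2.21% of the 11878 genes tested passed as lower and 2.24% as higher. Here 43 of the 53 were tested, the other 10 being Oas1g, Oas2, Oas3, Oasl2, Mx1, Mx2, Ifi44, Xaf1, Gbp6 and Cxcl10. Over all 53, the mean was lower in B2D+FF for 47 genes and higher for 6, and the median ratio of means was 0.607. Among the 43, the median log2 fold change was -0.31 (0.013 over all genes tested), 19 had an unadjusted p under 0.05 with a negative fold (9.93% of all), and for 12 every B2D+FF mouse lay below every Ctrl+FF mouse (6.44% of all). Of the 43, 6 reached the filter only through the Ctrl+FF mean (Oas1a, Ifit2, Apol9a, Gbp3, Gbp7 and Cxcl9). Of these, Ifit2, Apol9a, Gbp3 and Cxcl9 are among the 19, and Cxcl9 is among the 12. The count of genes that passed was 3 without B2D+FF mouse 1 or Ctrl+FF mouse 1, 2 or 3, 10 without B2D+FF mouse 3, and 5 to 8 without any of the other 3. It was 12 with limma array weights, 11 with limma voom on recovered reads, and 3 with no filter or with a mean FPKM of at least 5.

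The 14 genes that passed in either comparison have these mm10 spans: Irf7 at chr7:141262706-141266481, Dhx58 at chr11:100694884-100704271, Zbp1 at chr2:173206612-173218923, Oas1a at chr5:120896256-120907521, Oasl1 at chr5:114923240-114937915, Ifit1 at chr19:34640871-34650009, Ifit3 at chr19:34583531-34588731, Ifi27 at chr12:103434211-103440239, Cmpk2 at chr12:26469204-26479837, Bst2 at chr8:71534255-71537456, Rtp4 at chr16:23520291-23614222, Apol9a at chr15:77403789-77411135, Apol9b at chr15:77729039-77736382 and Irgm1 at chr11:48861968-48871683.

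**Figure D1:**
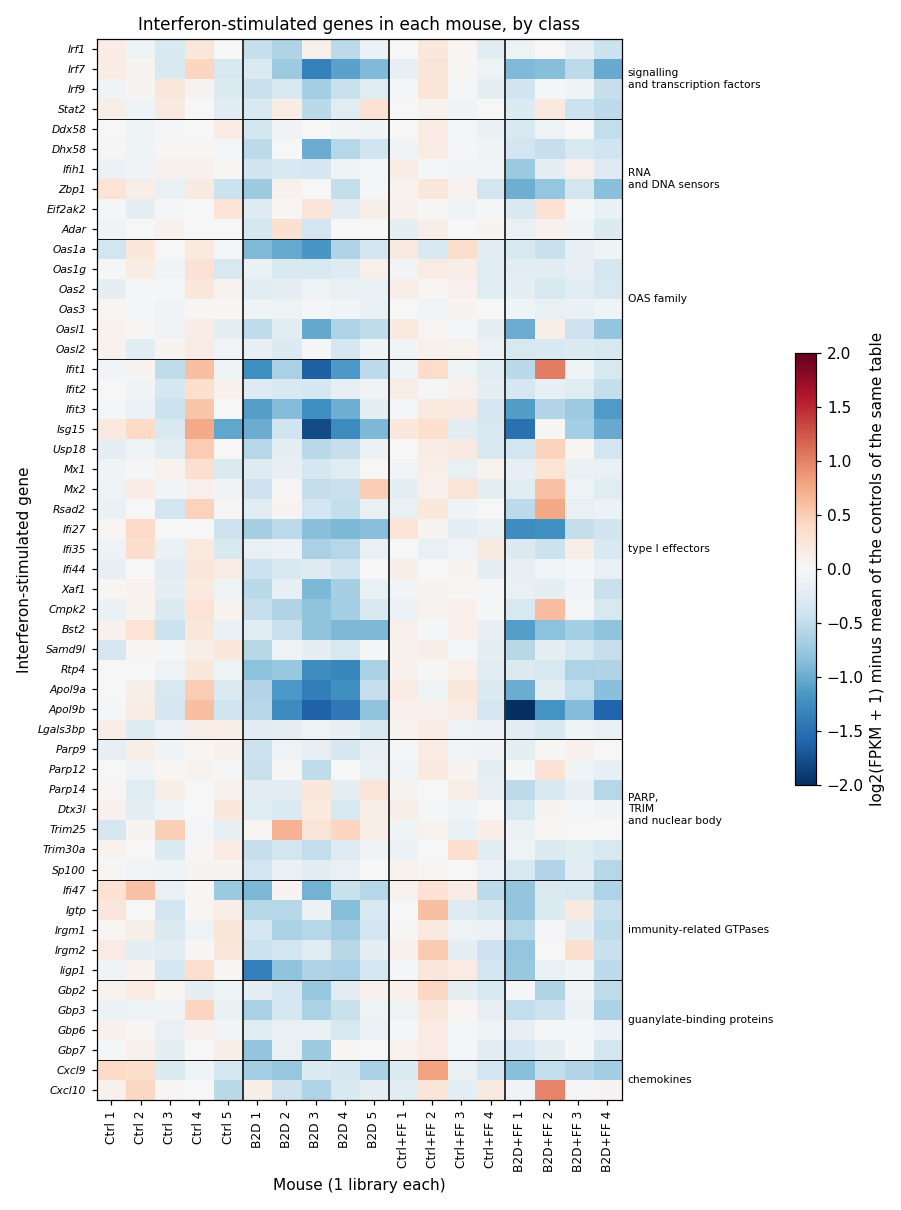
Each row is a gene, grouped by class, and each column a mouse. Colour gives log2(FPKM + 1) minus the mean of the control mice of the same table, from -2 (blue) to 2 (red). Most rows are blue in B2D and B2D+FF mice, Trim25 is red in 4 of the 5 B2D mice, and B2D+FF mouse 2 is red for Ifit1, Mx2, Rsad2, Cmpk2 and Cxcl10.

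By class, and over all members whether tested or not, the median ratio of B2D to Ctrl means was 0.745 for signalling and transcription factors, 0.858 for sensors, 0.615 for the OAS family, 0.579 for type I effectors, 0.859 for PARP, TRIM and nuclear body genes, 0.654 for immunity-related GTPases, 0.669 for guanylate-binding proteins and 0.562 for the chemokines. With fenofibrate the median ratios were 0.814, 0.761, 0.425, 0.601, 0.931, 0.757, 0.562 and 1.10 in the same order, the last from Cxcl9 below 1 and Cxcl10 above it. Some tested genes passed the filter through the control mean while the other mean was under 0.5 FPKM: Oas2, Oasl2 and Ifi44 without fenofibrate, and Oas1a, Ifit2, Apol9a, Gbp3, Gbp7 and Cxcl9 with it.

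Among the 4 signalling and transcription factor genes (Irf1, Irf7, Irf9 and Stat2), Irf7 fell in both experiments and the others did not pass. Irf7 encodes the factor that amplifies type I interferon production and is itself interferon-induced. Irf7 stood at 12.2, 11.4, 8.63, 15.1 and 8.51 FPKM in Ctrl mice 1 to 5 and at 8.72, 6.17, 3.70, 4.65 and 5.46 FPKM in B2D mice 1 to 5. The groups met only where B2D mouse 1 lay above Ctrl mice 3 and 5. The log2 fold change was -0.87 ± 0.20 (SE, adjusted p = 0.0400), and the gene passed in 3 of 10 fits that left out 1 mouse. With fenofibrate, Irf7 was at 3.15, 4.49, 3.70 and 3.33 FPKM in Ctrl+FF mice 1 to 4 and at 1.52, 1.56, 2.23 and 1.32 FPKM in B2D+FF mice 1 to 4. Every B2D+FF mouse lay below every Ctrl+FF mouse, and the log2 fold change was -0.82 ± 0.12 (SE, adjusted p = 0.0103), past the threshold without any of the 8 mice. Stat2, a subunit of the ISRE-binding complex, had the highest mean of the class over the 18 libraries, at 9.53, 8.12, 9.99, 8.63 and 7.33 FPKM in Ctrl mice 1 to 5 and at 6.80, 9.69, 5.62, 7.15 and 10.8 FPKM in B2D mice 1 to 5. B2D mouse 5 was above every Ctrl mouse, the groups overlapped, and the log2 fold change was -0.13 ± 0.16 (SE, adjusted p = 0.683). In the fenofibrate table Stat2 was at 4.64, 4.90, 4.35 and 4.59 FPKM in Ctrl+FF mice 1 to 4 and at 3.64, 5.43, 3.19 and 2.89 FPKM in B2D+FF mice 1 to 4. Of all 8 mice B2D+FF mouse 2 was the highest, and the log2 fold change was -0.26 ± 0.14 (SE, adjusted p = 0.337). Irf1 and Irf9 had negative fold changes in both tables, from -0.17 to -0.42, with adjusted p from 0.0792 to 0.457.

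The 6 sensor genes encode proteins that recognise viral RNA or unusual nucleic acids in the cytosol: Ddx58 (RIG-I), Ifih1 (MDA5), Dhx58 (LGP2), Zbp1, the kinase PKR (Eif2ak2) and the RNA editing enzyme ADAR1 (Adar). None passed without fenofibrate, and Dhx58 and Zbp1 fell with it. Dhx58 was at 3.76, 3.43, 3.78, 3.83 and 3.62 FPKM in Ctrl mice 1 to 5 and at 2.26, 3.72, 1.36, 2.16 and 2.57 FPKM in B2D mice 1 to 5. The Ctrl mice lay close together, and B2D mouse 2 was the only B2D mouse inside their range. The log2 fold change was -0.49 ± 0.15 (SE, adjusted p = 0.110). With fenofibrate, Dhx58 was at 1.56, 2.01, 1.65 and 1.55 FPKM in Ctrl+FF mice 1 to 4 and at 1.06, 0.962, 1.18 and 1.04 FPKM in B2D+FF mice 1 to 4. The groups did not overlap, and the log2 fold change was -0.38 ± 0.081 (SE, adjusted p = 0.0325), which passed in 2 of 8 fits that left out 1 mouse. Zbp1, a sensor of Z-form nucleic acid that can start cell death, was at 1.90, 1.60, 1.15, 1.71 and 0.772 FPKM in Ctrl mice 1 to 5 and at 0.462, 1.54, 1.39, 0.715 and 1.34 FPKM in B2D mice 1 to 5. The groups overlapped widely, with a log2 fold change of -0.22 ± 0.18 (SE, adjusted p = 0.532). In the fenofibrate table, Zbp1 was at 1.78, 2.10, 1.79 and 1.07 FPKM in Ctrl+FF mice 1 to 4 and at 0.349, 0.557, 1.07 and 0.484 FPKM in B2D+FF mice 1 to 4. B2D+FF mouse 3 almost reached Ctrl+FF mouse 4 but no values crossed, and the log2 fold change was -0.74 ± 0.16 (SE, adjusted p = 0.0360), passing in 2 of 8 fits that left out 1 mouse. Ifih1 and Eif2ak2 had the highest means of the class. Ifih1 was at 3.47, 3.59, 4.14, 4.15 and 3.92 FPKM in Ctrl mice 1 to 5 and at 2.68, 2.93, 2.85, 3.50 and 3.72 FPKM in B2D mice 1 to 5. Its highest B2D mice lay within the Ctrl range, and the log2 fold change was -0.24 ± 0.095 (SE, adjusted p = 0.211). Ifih1 then stood at 2.03, 1.67, 1.63 and 1.63 FPKM in Ctrl+FF mice 1 to 4 and at 0.640, 1.40, 1.94 and 1.28 FPKM in B2D+FF mice 1 to 4. B2D+FF mouse 1 was the lowest and B2D+FF mouse 3 overlapped the controls, and the log2 fold change was -0.27 ± 0.16 (SE, adjusted p = 0.362). Eif2ak2 was at 3.65, 3.22, 3.69, 3.74 and 4.77 FPKM in Ctrl mice 1 to 5 and at 3.01, 3.94, 4.74, 3.12 and 4.21 FPKM in B2D mice 1 to 5. The diets spanned almost the same range, and the log2 fold change of -0.0092 ± 0.12 (SE, adjusted p = 0.976) had a 95% interval from -0.27 to 0.26. With fenofibrate Eif2ak2 was at 2.38, 2.25, 1.98 and 2.15 FPKM in Ctrl+FF mice 1 to 4 and at 1.57, 2.88, 2.11 and 1.90 FPKM in B2D+FF mice 1 to 4. B2D+FF mice were both the lowest and the highest of the 8, with a log2 fold change of -0.049 ± 0.12 (SE, adjusted p = 0.859) and an interval from -0.32 to 0.22. Its sign turned when some single mice were left out of either table.

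The OAS family includes enzymes that make oligoadenylates, which switch on the RNA-degrading enzyme RNase L. All 6 genes (Oas1a, Oas1g, Oas2, Oas3, Oasl1 and Oasl2) had lower means on the deficient diet in both tables. Oas1a was at 1.40, 2.62, 2.10, 2.59 and 2.08 FPKM in Ctrl mice 1 to 5 and at 0.692, 0.559, 0.393, 1.07 and 1.40 FPKM in B2D mice 1 to 5. The lowest Ctrl mouse, mouse 1, was just above the highest B2D mouse, mouse 5, so the groups did not overlap. The log2 fold change was -0.81 ± 0.16 (SE, adjusted p = 0.0256), and it passed in 7 of 10 fits that left out 1 mouse, failing without B2D mouse 2, Ctrl mouse 2 or Ctrl mouse 4. With fenofibrate Oas1a was at 0.938, 0.387, 1.19 and 0.470 FPKM in Ctrl+FF mice 1 to 4 and at 0.374, 0.261, 0.538 and 0.621 FPKM in B2D+FF mice 1 to 4. The groups overlapped and the log2 fold change was -0.25 ± 0.16 (SE, adjusted p = 0.403). Oasl1 was at 3.90, 3.77, 3.48, 4.19 and 3.15 FPKM in Ctrl mice 1 to 5 and at 2.31, 2.99, 1.31, 2.05 and 2.30 FPKM in B2D mice 1 to 5. All Ctrl mice lay above all B2D mice, with a log2 fold change of -0.58 ± 0.13 (SE, adjusted p = 0.0412), passing in 3 of 10 fits that left out 1 mouse. In the fenofibrate table Oasl1 was at 1.78, 1.47, 1.37 and 1.15 FPKM in Ctrl+FF mice 1 to 4 and at 0.225, 1.64, 0.834 and 0.412 FPKM in B2D+FF mice 1 to 4. B2D+FF mouse 2 was second only to Ctrl+FF mouse 1, and the log2 fold change was -0.52 ± 0.21 (SE, adjusted p = 0.209). Oas1g, Oas2, Oas3 and Oasl2 were low, with group means from 0.0242 to 0.653 FPKM. Below the filter with fenofibrate, Oas3 (mean FPKM 0.107 for Ctrl+FF against 0.0242 for B2D+FF) and Oasl2 (0.406 against 0.137) did not overlap between the diets, Oas3 resting on at most 18 reads per library there. Oas1a and Oas1g share 47.6% of the 75-base windows of the Oas1a transcript, so reads may be split between them and their single values are uncertain.

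Of the 19 type I effector genes, 7 fell without fenofibrate and 3 with it. Rtp4, which encodes a receptor-transporting protein of the interferon response, had the smallest adjusted p of the 53 genes without fenofibrate. Rtp4 was at 5.99, 5.99, 5.52, 7.09 and 5.54 FPKM in Ctrl mice 1 to 5 and at 2.98, 3.13, 1.95, 1.84 and 3.48 FPKM in B2D mice 1 to 5. Every Ctrl mouse was well above the highest B2D mouse. The log2 fold change was -0.95 ± 0.14 (SE, adjusted p = 0.00557), and Rtp4 passed without any of the 10 mice. With fenofibrate Rtp4 was at 2.34, 2.20, 2.40 and 1.74 FPKM in Ctrl+FF mice 1 to 4 and at 1.60, 1.52, 1.07 and 1.08 FPKM in B2D+FF mice 1 to 4. The groups again did not overlap, while the log2 fold change of -0.46 ± 0.11 (SE, adjusted p = 0.0512) just missed the threshold. Rtp4 shares 13.9% of its exon bases with the gene model Gm45338 on the same strand.

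Apolipoprotein L9a and L9b, encoded by a pair of mouse genes on chromosome 15, are interferon-induced and have been tied to antiviral activity. Apol9b was at 49.0, 54.8, 39.2, 75.8 and 37.5 FPKM in Ctrl mice 1 to 5 and at 33.0, 20.2, 15.5, 17.8 and 27.8 FPKM in B2D mice 1 to 5. The groups did not overlap, Ctrl mouse 4 was the highest and B2D mouse 3 the lowest, and the log2 fold change was -1.14 ± 0.23 (SE, adjusted p = 0.0262), passing in 5 of 10 fits that left out 1 mouse. With fenofibrate Apol9b was at 10.04, 9.91, 10.4 and 7.16 FPKM in Ctrl+FF mice 1 to 4 and at 1.48, 3.48, 4.62 and 2.41 FPKM in B2D+FF mice 1 to 4. The highest B2D+FF mouse was well below the lowest Ctrl+FF mouse, and the log2 fold change of -1.43 ± 0.23 (SE, adjusted p = 0.0123) passed without any of the 8 mice. Apol9a was at 7.57, 8.41, 5.90, 11.2 and 6.03 FPKM in Ctrl mice 1 to 5 and at 4.76, 2.89, 2.33, 2.67 and 5.26 FPKM in B2D mice 1 to 5. The groups did not overlap, with a log2 fold change of -0.96 ± 0.21 (SE, adjusted p = 0.0332) that passed in 4 of 10 fits that left out 1 mouse. In the fenofibrate table Apol9a was at 1.505, 1.08, 1.59 and 0.843 FPKM in Ctrl+FF mice 1 to 4 and at 0.128, 0.933, 0.584 and 0.246 FPKM in B2D+FF mice 1 to 4. The groups overlapped, B2D+FF mouse 2 lying above Ctrl+FF mouse 4, and the log2 fold change was -0.63 ± 0.18 (SE, adjusted p = 0.0822). The transcripts share 41.6% of the windows of Apol9b and 47.9% of those of Apol9a, so the split of reads between them is uncertain.

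Ifit1 and Ifit3 encode tetratricopeptide proteins that bind foreign RNA or partner those that do. Ifit1 was at 5.95, 6.45, 4.05, 9.90 and 5.76 FPKM in Ctrl mice 1 to 5 and at 2.07, 3.57, 1.31, 2.25 and 4.02 FPKM in B2D mice 1 to 5. Ctrl mouse 3 was just above B2D mouse 5 and the groups did not overlap. The log2 fold change was -1.04 ± 0.23 (SE, adjusted p = 0.0368), and the gene passed in 3 of 10 fits that left out 1 mouse. With fenofibrate Ifit1 was at 0.665, 1.24, 0.628 and 0.511 FPKM in Ctrl+FF mice 1 to 4 and at 0.199, 2.54, 0.637 and 0.386 FPKM in B2D+FF mice 1 to 4. B2D+FF mouse 2 was the highest of all 8 and B2D+FF mouse 1 the lowest, and the log2 fold change was 0.018 ± 0.30 (SE, adjusted p = 0.983). Without B2D+FF mouse 2 it was -0.32, and its sign also turned under 4 other settings and without Ctrl+FF mouse 1, 3 or 4. Ifit3 was at 7.47, 6.96, 5.38, 11.7 and 7.59 FPKM in Ctrl mice 1 to 5 and at 2.99, 3.73, 2.68, 3.37 and 6.57 FPKM in B2D mice 1 to 5. B2D mouse 5 was the only B2D mouse above the lowest Ctrl mouse, and the log2 fold change was -0.87 ± 0.21 (SE, adjusted p = 0.0499), passing in 2 of 10 fits that left out 1 mouse. In the fenofibrate table Ifit3 was at 2.41, 2.99, 2.97 and 1.76 FPKM in Ctrl+FF mice 1 to 4 and at 0.606, 1.32, 1.11 and 0.587 FPKM in B2D+FF mice 1 to 4. The groups did not overlap, with a log2 fold change of -0.89 ± 0.16 (SE, adjusted p = 0.0182) that passed in 4 of 8 fits that left out 1 mouse. Ifit3 shares 41.1% of its transcript windows with Ifit3b.

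Ifi27 encodes a small membrane protein, Bst2 the tetherin that holds budding virus at the cell surface, and Cmpk2 a mitochondrial nucleotide kinase next to Rsad2. Ifi27 was at 54.0, 68.7, 51.9, 52.1 and 38.9 FPKM in Ctrl mice 1 to 5 and at 32.7, 35.9, 28.8, 27.6 and 28.7 FPKM in B2D mice 1 to 5. The groups did not overlap, and the log2 fold change of -0.75 ± 0.14 (SE, adjusted p = 0.0182) passed in 8 of 10 fits that left out 1 mouse, failing without B2D mouse 4 or Ctrl mouse 4. With fenofibrate Ifi27 was at 44.8, 38.7, 32.6 and 33.3 FPKM in Ctrl+FF mice 1 to 4 and at 15.1, 15.5, 26.4 and 27.9 FPKM in B2D+FF mice 1 to 4. The groups again did not overlap, and the log2 fold change was -0.83 ± 0.21 (SE, adjusted p = 0.0599). Bst2 had the highest mean of the 53 genes over the 18 libraries, at 106, 122, 74.1, 116 and 91.1 FPKM in Ctrl mice 1 to 5 and at 84.6, 73.2, 57.0, 53.2 and 53.6 FPKM in B2D mice 1 to 5. B2D mouse 1 lay above Ctrl mouse 3, and the log2 fold change was -0.66 ± 0.17 (SE, adjusted p = 0.0666). With the drug, Bst2 was at 147, 134, 148 and 123 FPKM in Ctrl+FF mice 1 to 4 and at 63.8, 77.4, 85.8 and 78.4 FPKM in B2D+FF mice 1 to 4. The groups were far apart, and the log2 fold change of -0.85 ± 0.11 (SE, adjusted p = 0.00533), the smallest adjusted p of the 53 there, passed without any of the 8 mice. Cmpk2 was at 1.47, 1.82, 1.22, 2.25 and 1.85 FPKM in Ctrl mice 1 to 5 and at 0.965, 0.774, 0.547, 0.681 and 1.18 FPKM in B2D mice 1 to 5. The groups did not overlap, with Ctrl mouse 3 just above B2D mouse 5, and the log2 fold change of -0.57 ± 0.13 (SE, adjusted p = 0.0367) passed in 3 of 10 fits that left out 1 mouse. With fenofibrate Cmpk2 was at 0.556, 0.774, 0.815 and 0.652 FPKM in Ctrl+FF mice 1 to 4 and at 0.353, 1.59, 0.662 and 0.352 FPKM in B2D+FF mice 1 to 4. B2D+FF mouse 2 was the highest of the 8 and the other 3 B2D+FF mice overlapped or lay below the controls, with a log2 fold change of -0.018 ± 0.19 (SE, adjusted p = 0.973) whose sign turned under quantile normalization and without some single mice.

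The other 11 effector genes did not pass in either table: Ifit2, Isg15, Usp18, Mx1, Mx2, Rsad2, Ifi35, Ifi44, Xaf1, Samd9l and Lgals3bp. Where tested, their log2 fold changes ran from -1.07 (Isg15) to -0.17 (Mx2) without fenofibrate and from -0.79 (Isg15) to -0.0030 (Rsad2) with it. Isg15, named here after its values were seen, encodes a ubiquitin-like protein and ran from 5.25 to 20.7 FPKM in Ctrl and from 2.71 to 8.68 in B2D (adjusted p = 0.109). Samd9l, also named after its values were seen, did not overlap between the diets with fenofibrate (adjusted p = 0.0779).

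**Figure D2:**
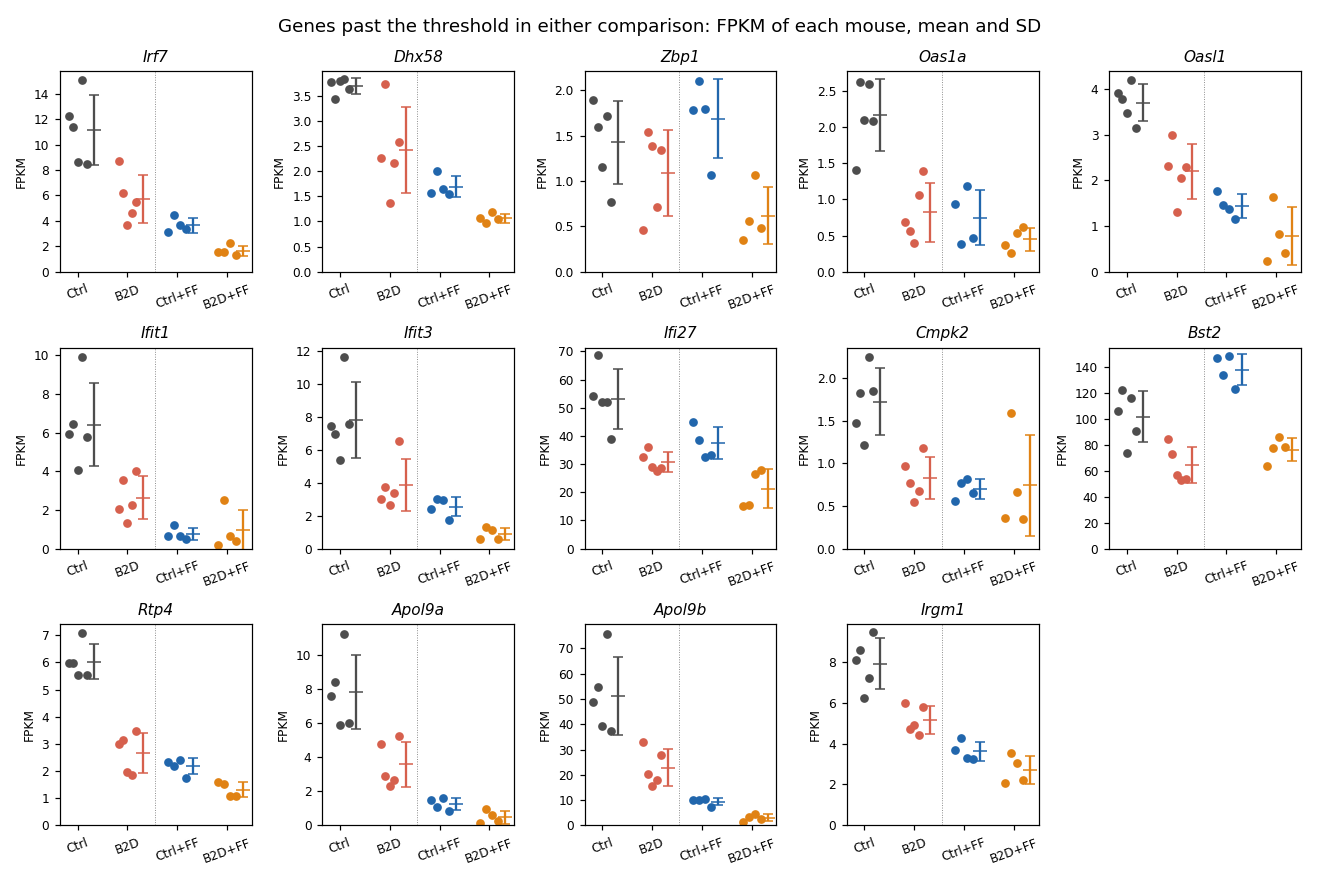
FPKM of each mouse (points) with the mean and SD of each group (bars, cut at 0) for the 14 genes past the threshold in either comparison, on an axis from 0 for each gene. Ctrl and B2D mice (n = 5 each) are from 1 table and Ctrl+FF and B2D+FF mice (n = 4 each) from the other, separated by the dotted line. Rtp4, Ifi27 and Apol9b do not overlap between the diets in either table.

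Of the 7 genes for PARP, TRIM and nuclear body proteins (Parp9, Parp12, Parp14, Dtx3l, Trim25, Trim30a and Sp100), none passed in either table. Parp9 and Trim25 had the highest means. Trim25, a ubiquitin ligase that assists RIG-I, was at 13.2, 17.5, 23.8, 16.5 and 15.03 FPKM in Ctrl mice 1 to 5 and at 17.1, 27.8, 20.4, 22.9 and 18.5 FPKM in B2D mice 1 to 5. It was the only gene of the 53 with a positive fold change without fenofibrate, though the groups overlapped and the log2 fold change was 0.30 ± 0.16 (SE, adjusted p = 0.342). On the longer diet with fenofibrate, Trim25 was at 15.1, 17.0, 14.6 and 17.8 FPKM in Ctrl+FF mice 1 to 4 and at 14.7, 16.6, 16.1 and 15.9 FPKM in B2D+FF mice 1 to 4. The groups overlapped, with a log2 fold change of -0.022 ± 0.087 (SE, adjusted p = 0.914) and a 95% interval from -0.22 to 0.17, and its sign turned when some single mice were left out. Parp9, which works with the ubiquitin ligase DTX3L, was at 12.2, 15.1, 12.9, 14.2 and 14.6 FPKM in Ctrl mice 1 to 5 and at 9.93, 12.8, 12.2, 10.8 and 12.2 FPKM in B2D mice 1 to 5. The groups overlapped slightly, with a log2 fold change of -0.24 ± 0.10 (SE, adjusted p = 0.222). With fenofibrate Parp9 was at 7.04, 8.28, 6.91 and 6.86 FPKM in Ctrl+FF mice 1 to 4 and at 6.21, 7.43, 7.79 and 7.17 FPKM in B2D+FF mice 1 to 4. The groups overlapped, with a log2 fold change of -0.022 ± 0.091 (SE, adjusted p = 0.918) and an interval from -0.23 to 0.18, whose sign turned without B2D+FF mouse 1 or Ctrl+FF mouse 2. Parp14 and Sp100, named after their values were seen, did not overlap between the diets with fenofibrate, with log2 fold changes of -0.39 ± 0.11 (SE, adjusted p = 0.0816) for Parp14 and -0.43 ± 0.10 (SE, adjusted p = 0.0520) for Sp100. Parp9 and Dtx3l overlap on opposite strands over 458 exon bases, and whether the counting used strand is not given in the sources used here.

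The immunity-related GTPases act on the membranes of vacuoles that hold parasites or bacteria and are induced mainly by type II interferon. All 5 (Ifi47, Igtp, Irgm1, Irgm2 and Iigp1) had lower means on the deficient diet in both tables, and Irgm1 fell without fenofibrate. Irgm1, a regulator of the other GTPases and of autophagy, was at 8.06, 8.55, 6.22, 7.19 and 9.45 FPKM in Ctrl mice 1 to 5 and at 5.97, 4.70, 4.91, 4.43 and 5.80 FPKM in B2D mice 1 to 5. Ctrl mouse 3 was just above B2D mouse 1 and the groups did not overlap. The log2 fold change was -0.52 ± 0.12 (SE, adjusted p = 0.0379), passing in 3 of 10 fits that left out 1 mouse. With fenofibrate Irgm1 was at 3.70, 4.26, 3.29 and 3.26 FPKM in Ctrl+FF mice 1 to 4 and at 2.09, 3.53, 3.03 and 2.23 FPKM in B2D+FF mice 1 to 4. B2D+FF mouse 2 lay within the control range, and the log2 fold change was -0.33 ± 0.13 (SE, adjusted p = 0.200). Iigp1, an effector GTPase, was the most abundant of the class at 83.3, 91.5, 67.7, 110.4 and 88.2 FPKM in Ctrl mice 1 to 5 and at 33.3, 49.5, 57.1, 55.5 and 68.3 FPKM in B2D mice 1 to 5. B2D mouse 5 just passed Ctrl mouse 3, and the log2 fold change was -0.75 ± 0.18 (SE, adjusted p = 0.0522). In FF mice, Iigp1 was at 51.2, 61.6, 58.4 and 40.5 FPKM in Ctrl+FF mice 1 to 4 and at 30.6, 47.4, 49.6 and 36.0 FPKM in B2D+FF mice 1 to 4. The groups overlapped, with a log2 fold change of -0.37 ± 0.18 (SE, adjusted p = 0.277). Igtp, another regulator, was at 16.1, 13.6, 10.2, 14.2 and 15.04 FPKM in Ctrl mice 1 to 5 and at 8.86, 8.87, 12.5, 7.11 and 10.7 FPKM in B2D mice 1 to 5. B2D mice 3 and 5 lay within the Ctrl range, with a log2 fold change of -0.49 ± 0.15 (SE, adjusted p = 0.115). With fenofibrate Igtp was at 6.57, 10.6, 5.35 and 4.96 FPKM in Ctrl+FF mice 1 to 4 and at 3.40, 5.28, 7.55 and 4.56 FPKM in B2D+FF mice 1 to 4. Ctrl+FF mouse 2 was the highest and the groups overlapped, with a log2 fold change of -0.33 ± 0.24 (SE, adjusted p = 0.468).

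The guanylate-binding proteins are larger GTPases that coat and break open such vacuoles. All 4 genes (Gbp2, Gbp3, Gbp6 and Gbp7) had lower means on the deficient diet in both tables and none passed. Gbp3 was at 2.08, 2.13, 2.19, 3.50 and 2.05 FPKM in Ctrl mice 1 to 5 and at 1.13, 1.61, 1.15, 1.45 and 2.13 FPKM in B2D mice 1 to 5. B2D mouse 5 overlapped the Ctrl range, and the log2 fold change was -0.44 ± 0.14 (SE, adjusted p = 0.122). With fenofibrate Gbp3 was at 0.691, 1.10, 0.863 and 0.614 FPKM in Ctrl+FF mice 1 to 4 and at 0.288, 0.361, 0.666 and 0.164 FPKM in B2D+FF mice 1 to 4. B2D+FF mouse 3 was above Ctrl+FF mouse 4, with a log2 fold change of -0.41 ± 0.13 (SE, adjusted p = 0.108). Gbp2 was at 1.85, 2.03, 1.79, 1.40 and 1.54 FPKM in Ctrl mice 1 to 5 and at 1.38, 1.14, 0.611, 1.31 and 1.88 FPKM in B2D mice 1 to 5. B2D mouse 5 lay above 4 of the Ctrl mice, and the log2 fold change was -0.29 ± 0.14 (SE, adjusted p = 0.304). After fenofibrate, Gbp2 was at 1.04, 1.52, 0.663 and 0.516 FPKM in Ctrl+FF mice 1 to 4 and at 0.840, 0.254, 0.807 and 0.330 FPKM in B2D+FF mice 1 to 4. The groups overlapped, with a log2 fold change of -0.31 ± 0.19 (SE, adjusted p = 0.385). Gbp6 shares 86.0% of its transcript windows with the gene model Gm43302, and its values are uncertain.

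The chemokines CXCL9 and CXCL10 draw T and NK cells to tissue. Neither gene passed in either table. Cxcl9 was at 2.65, 2.57, 1.28, 1.62 and 1.19 FPKM in Ctrl mice 1 to 5 and at 0.738, 0.660, 1.30, 1.18 and 0.785 FPKM in B2D mice 1 to 5. The groups overlapped at the low end of the Ctrl mice, with a log2 fold change of -0.54 ± 0.17 (SE, adjusted p = 0.112). With fenofibrate Cxcl9 was at 0.748, 2.66, 0.897 and 0.607 FPKM in Ctrl+FF mice 1 to 4 and at 0.175, 0.489, 0.401 and 0.291 FPKM in B2D+FF mice 1 to 4. Ctrl+FF mouse 2 stood far above its group, no values crossed, and the log2 fold change was -0.66 ± 0.24 (SE, adjusted p = 0.151), or -0.39 without that mouse. Cxcl10 was at 0.998, 1.51, 0.901, 0.895 and 0.297 FPKM in Ctrl mice 1 to 5 and at 1.04, 0.416, 0.228, 0.526 and 0.654 FPKM in B2D mice 1 to 5. The groups overlapped, with a log2 fold change of -0.28 ± 0.18 (SE, adjusted p = 0.420). In the second experiment, Cxcl10 was at 0.108, 0.540, 0.128 and 0.472 FPKM in Ctrl+FF mice 1 to 4 and at 0.235, 1.55, 0.257 and 0.347 FPKM in B2D+FF mice 1 to 4 and below the filter. The highest of the 8 mice was B2D+FF mouse 2, and the other 3 B2D+FF mice lay within the Ctrl+FF range.

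The effect of the diet was not shown to differ between the experiments for any of these genes. The contrast of the 2 diet effects in 1 limma fit of all 18 libraries passed for 0 of the 43 tested genes (0.145% of the 11031 genes tested), also for 0 with limma voom, and had an unadjusted p under 0.05 for 4 (11.9% of all genes tested in either direction). The share at that p was not above the share of all genes, so the 4 genes are not read as a result. They were Ifit1, Cmpk2, Oas1a and Rtp4, each with a less negative diet effect with fenofibrate. Of the 43 differences, 25 were positive and 18 negative. For Ifit1 and Cmpk2, B2D+FF mouse 2 was the highest of the FF mice, at 2.54 and 1.59 FPKM. Oas1a reached the filter with fenofibrate only through the Ctrl+FF mean. The difference was 1.06 ± 0.40 on the log2 scale for Ifit1 (SE, adjusted p = 0.303) and 0.50 ± 0.19 for Rtp4 (SE, adjusted p = 0.298). A p that misses the threshold does not show that the effects were alike. The 2 comparisons share no mice. Irf7, Ifit3 and Apol9b passed in both (0.544% of the 11031 genes passed as lower in both), Apol9b, Ifi27 and Rtp4 had no overlap between the diets in both (0.907% of the 11031 genes), and 40 of the 43 had a negative log2 fold change in both, against 3173 of the 11031. The scatter of the fold changes in both experiments shows these side by side.

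**Figure D3:**
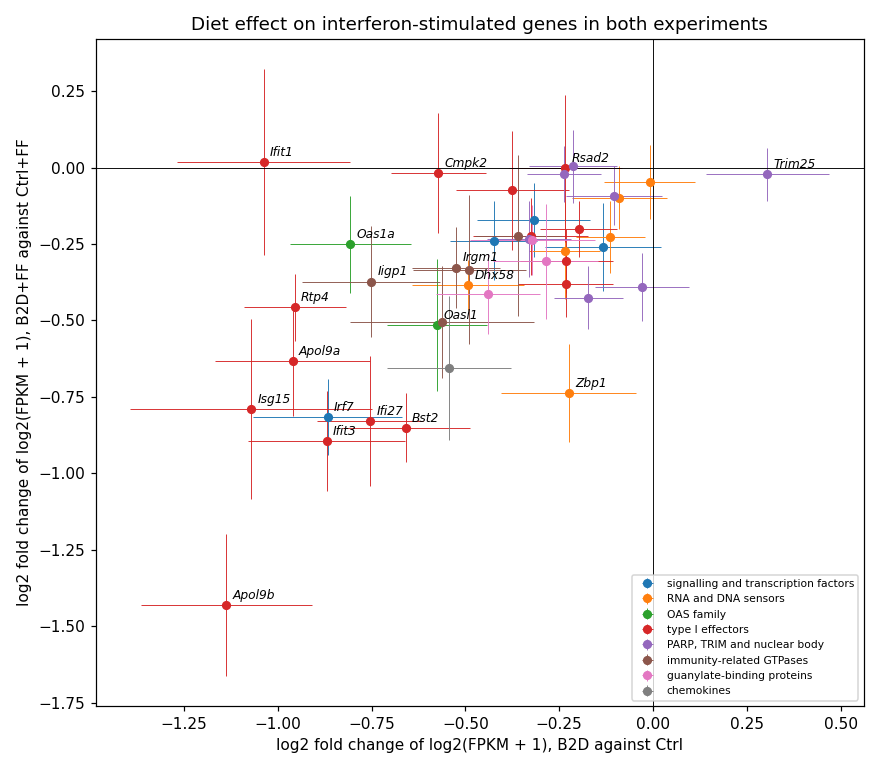
Log2 fold change of log2(FPKM + 1) for B2D against Ctrl (horizontal) and for B2D+FF against Ctrl+FF (vertical), 1 point per gene for the 43 genes tested in both, coloured by class, with bars of 1 SE. Apol9b lies lowest on both axes, Trim25 alone lies right of 0, and Ifit1 lies at -1.04 on the horizontal axis and near 0 on the vertical.

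The levels of the genes in the 2 tables can be set side by side. The mean was lower in Ctrl+FF than in Ctrl for 51 of the 53 genes, with a median ratio of 0.477, and lower in B2D+FF than in B2D for 51 of 53, with a median ratio of 0.472. Over the 11031 genes, 56.3% and 55.2% had a lower mean, and the median ratio was 0.956 in each. Apol9b had a mean (± SD) of 51.3 ± 15.4 FPKM in Ctrl mice and 22.9 ± 7.31 in B2D mice, against 9.38 ± 1.498 in Ctrl+FF mice and 2.999 ± 1.35 in B2D+FF mice. Bst2 and Zbp1 were the genes with a higher mean in Ctrl+FF than in Ctrl, Bst2 at 138 ± 11.97 against 102 ± 19.5 FPKM. The tables were normalized separately and no test was run between them.

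Some mice were high or low for many of the genes. Ctrl mouse 4 was the highest of its group for 23 of the 49 tested genes, B2D mouse 5 for 22, Ctrl+FF mouse 2 for 25 of 43 and B2D+FF mouse 2 for 21. B2D mouse 3 was the lowest for 22 of 49, Ctrl+FF mouse 4 for 32 of 43 and B2D+FF mouse 1 for 22. The mean log2(FPKM + 1) over the tested genes was 2.67 ± 0.12 in Ctrl, 2.25 ± 0.14 in B2D, 2.09 ± 0.13 in Ctrl+FF and 1.73 ± 0.19 in B2D+FF, as mean ± SD over mice, from 49 genes in the first pair of groups and 43 in the second. It ran from 2.54 to 2.84 in Ctrl and from 2.11 to 2.45 in B2D, without overlap, and from 1.91 to 2.24 in Ctrl+FF and from 1.53 to 1.91 in B2D+FF, where B2D+FF mouse 2 nearly reached Ctrl+FF mouse 4. As neighbours on the chromosome (within 100000 bases), 23 of the 53 genes lie in 9 clusters, such as Ifit2, Ifit3 and Ifit1 on chromosome 19.

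The interferons themselves were almost undetected. Of 21 ligand genes listed, 19 had 0 reads in all 18 libraries. That allows an expected total of up to 3 reads per gene over the 18 libraries together. Ifnk had 28 reads over 14 libraries and Ifng 3 reads over 2. The Ifna copies are near-identical, so their counts are uncertain. None of the 8 tested receptor and kinase genes passed in either table. The type I receptor gene Ifnar1 was at 7.08, 6.08, 5.81, 7.85 and 6.48 FPKM in Ctrl mice 1 to 5 and at 6.40, 6.70, 8.07, 6.30 and 6.19 FPKM in B2D mice 1 to 5. The diets overlapped, with a log2 fold change of 0.014 ± 0.10 (SE, adjusted p = 0.954) and an interval from -0.21 to 0.24. Ifnar2 had a log2 fold change of -0.26 ± 0.11 (SE, adjusted p = 0.222) and Jak1 of 0.10 ± 0.10 (SE, adjusted p = 0.632). With fenofibrate the values were -0.080 ± 0.068 (SE, adjusted p = 0.538) for Ifnar1 and -0.048 ± 0.11 (SE, adjusted p = 0.848) for Ifnar2.

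Among the 8 other STAT and IRF genes, Irf5, a factor for inflammatory cytokines in macrophages, fell without fenofibrate. Irf5 was at 3.41, 3.01, 1.94, 2.86 and 2.34 FPKM in Ctrl mice 1 to 5 and at 2.04, 1.65, 1.35, 1.17 and 1.14 FPKM in B2D mice 1 to 5. B2D mouse 1 lay above the lowest Ctrl mouse, and the log2 fold change was -0.58 ± 0.13 (SE, adjusted p = 0.0400). With the drug, its log2 fold change was -0.14 ± 0.084 (SE, adjusted p = 0.364).

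Of the 8 negative regulators, 7 were tested, and Trim24 rose in both experiments. Without fenofibrate 4 of the 7 had a negative log2 fold change and 3 a positive one (median -0.0032). With fenofibrate 1 was negative and 6 were positive (median 0.13). Of all genes tested, 0.769% passed as higher without fenofibrate and 2.24% with it. Trim24 encodes a corepressor known to restrain interferon signalling in mouse liver. Trim24 was at 3.13, 2.44, 4.09, 2.58 and 3.39 FPKM in Ctrl mice 1 to 5 and at 3.80, 6.33, 9.78, 8.39 and 6.52 FPKM in B2D mice 1 to 5. Only B2D mouse 1 lay inside the Ctrl range, and the log2 fold change was 0.91 ± 0.19 (SE, adjusted p = 0.0327). With fenofibrate Trim24 was at 3.57, 3.71, 3.96 and 5.19 FPKM in Ctrl+FF mice 1 to 4 and at 8.44, 10.5, 7.01 and 6.86 FPKM in B2D+FF mice 1 to 4. Every B2D+FF mouse was above every Ctrl+FF mouse, with a log2 fold change of 0.84 ± 0.14 (SE, adjusted p = 0.0152). The phosphatase gene Ptpn2, whose product acts on JAK1, rose with fenofibrate (log2 fold change 0.38 ± 0.083 SE, adjusted p = 0.0382) and had 0.14 ± 0.12 (SE, adjusted p = 0.574) without it. Of the 14 adaptor and kinase genes of nucleic acid sensing, Ticam1 rose (log2 fold change 0.48 ± 0.094 SE, adjusted p = 0.0245) and Traf3 fell (log2 fold change -0.46 ± 0.10 SE, adjusted p = 0.0418) with fenofibrate, and none passed without it.

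**Figure D4:**
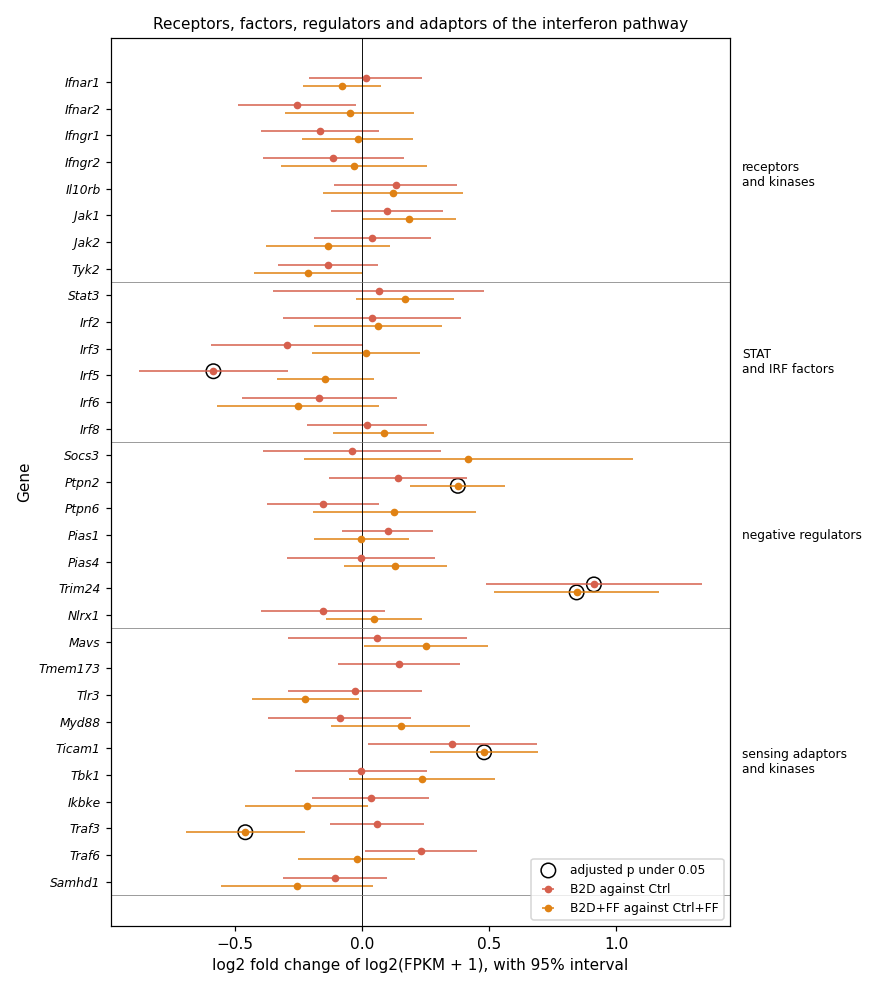
Log2 fold change of log2(FPKM + 1) with its 95% interval, for B2D against Ctrl (red) and B2D+FF against Ctrl+FF (orange), by role. The genes are the tested receptors and kinases, STAT and IRF factors, negative regulators, and sensing adaptors and kinases outside the 53. All but 1 of these are shown. The further 78 interferon-stimulated genes are not plotted. Open circles mark an adjusted p under 0.05. Receptor and kinase genes carry no open circle, and Trim24 is at 0.91 and 0.84.

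A further 78 interferon-stimulated genes outside the 53, from a list also drawn from general knowledge, gave 5 genes that fell without fenofibrate (Ube2l6, Ifit3b, Ifitm3, Ly6e and Oas1b) and 4 that fell with it (Ifitm3, Ly6e, Tap2 and Rnf213), and none that rose, of 57 and 46 tested. That list too was made with earlier results known. The filter was reached through the mean of 1 diet alone by 4 of the 57 and 2 of the 46. Oas1b was among the 4, at 0.624 to 1.37 FPKM in Ctrl and 0.191 to 0.440 FPKM in B2D. Without fenofibrate 46 of its 57 tested genes had a negative log2 fold change and 11 a positive one (median -0.21). Among the 11574 genes tested there, 50.2% were negative, with a median of -0.0013. With fenofibrate 38 of 46 were negative and 8 positive (median -0.22). Among the 11878 genes tested there, 47.2% were negative, with a median of 0.013. The shares of all genes that passed were 1.94% lower and 0.769% higher without fenofibrate, and 2.21% lower and 2.24% higher with it. Over all 138 other interferon genes, 6 fell and 1 rose of 89 tested without fenofibrate (median log2 fold change -0.13), and 5 fell and 3 rose of 77 tested with it (-0.14). Without fenofibrate no such gene passed when Ctrl mouse 2 or 4 was left out, 2 passed without Ctrl mouse 1 or B2D mouse 4 and 4 without B2D mouse 2 or 3. With fenofibrate 1 passed without Ctrl+FF mouse 1 or 2, 2 without Ctrl+FF mouse 3 or B2D+FF mouse 4, and 4 without B2D+FF mouse 1. Ifitm3, which blocks virus entry at endosomes, was at 261, 258, 233, 279 and 189 FPKM in Ctrl mice 1 to 5 and at 160.4, 165, 143, 157 and 154 FPKM in B2D mice 1 to 5. No values crossed, and the log2 fold change was -0.63 ± 0.12 (SE, adjusted p = 0.0177). With fenofibrate Ifitm3 was at 124, 108, 121 and 78.7 FPKM in Ctrl+FF mice 1 to 4 and at 29.7, 39.1, 68.6 and 36.6 FPKM in B2D+FF mice 1 to 4. The groups again did not overlap, with a log2 fold change of -1.34 ± 0.25 (SE, adjusted p = 0.0187). Ly6e, a membrane protein, had log2 fold changes of -0.62 ± 0.12 (SE, adjusted p = 0.0240) and -0.65 ± 0.11 (SE, adjusted p = 0.0152), and the groups did not overlap in either table. Ube2l6, the conjugating enzyme for ISG15, had -0.82 ± 0.17 (SE, adjusted p = 0.0265) without fenofibrate and -0.37 ± 0.17 (SE, adjusted p = 0.253) with it.

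A few markers of liver cell types fell on the deficient diet too, and others rose. Of 10 Kupffer cell (liver macrophage) markers, 9 had a negative log2 fold change without fenofibrate and Clec4f (log2 fold change -0.47 ± 0.11 SE, adjusted p = 0.0412) and C1qa (log2 fold change -0.50 ± 0.10 SE, adjusted p = 0.0275) fell, while with fenofibrate 8 had a negative value and none passed. Their summed FPKM was 139 to 167 in Ctrl, 108 to 146 in B2D, 112 to 190 in Ctrl+FF and 75.5 to 194 in B2D+FF. Of 8 monocyte and macrophage markers, 4 were tested, none passed, and the sums were 27.3 to 47.4, 24.3 to 41.3, 29.6 to 70.4 and 21.8 to 58.9 in the same order. None of the 12 T and NK cell markers reached the filter, with sums of 0.886 to 3.37, 1.31 to 1.98, 1.46 to 1.81 and 0.768 to 0.979. The 9 dendritic cell markers had sums of 33.3 to 75.8, 26.8 to 44.6, 23.0 to 49.4 and 10.8 to 28.3, almost all from Cd74 and H2-Ab1, while Siglech, which marks plasmacytoid cells, was at a mean of 0.133 FPKM over the 18 libraries. The 6 neutrophil markers had sums of 0.892 to 2.12, 2.25 to 6.28, 2.35 to 4.27 and 2.24 to 11.6, and none of the 3 tested passed. All 3 had a positive log2 fold change in both comparisons. Of 9 sinusoidal endothelial markers only Lyve1 passed, and it rose with fenofibrate (log2 fold change 0.77 ± 0.16 SE, adjusted p = 0.0294). A positive log2 fold change was seen for 6 of the 9 without fenofibrate and for 1 with it. Of 5 red blood cell markers Alas2 fell in both experiments (log2 fold change -1.36 ± 0.23 SE, adjusted p = 0.0114 and log2 fold change -1.37 ± 0.11 SE, adjusted p = 0.000918), and Tat alone of the 9 hepatocyte markers passed, rising with fenofibrate (log2 fold change 1.35 ± 0.25 SE, adjusted p = 0.0188). None of the 6 B cell, 7 stellate cell and 5 cholangiocyte markers passed. B2D+FF mouse 2, highest of its group for 21 genes, had the lowest sum of all 18 mice for 8 of the 11 marker lists, among them hepatocytes (20400), Kupffer cells (75.5) and sinusoidal endothelial cells (34.6), and the highest for neutrophils (11.6). The part of these cells in the results was not tested.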

How the data were processed

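Liver RNA of 18 mice was sequenced, 1 library per mouse. The submitters' processing notes name STAR, featureCounts, DESeq2 and mm10. The authors deposited 1 table per experiment with a value per gene and library in FPKM, which the methods call RPKM; whether counting used strand is not given in the sources used here. Each column gave whole reads for every value (tolerance 0.05 reads) once 1 read's worth was found, 15320729 to 21898502 reads per library.

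The 53 genes, their classes, the 138 other interferon genes and the 86 cell type markers were chosen with earlier results of these data known. Each table was fitted alone with limma 3.58.1 (R 4.3.3), with trend, on log2(FPKM + 1), for genes with a mean of at least 0.5 FPKM, with Benjamini-Hochberg adjustment over all genes tested and a threshold of 0.05. A fold change on this scale understates that of low genes. A fit of all 18 libraries gave the difference between the diet effects. Values per mouse are given for genes past the threshold, for Rtp4 and for the 2 genes of each class with the highest mean; genes outside this rule are said to be so. P-values are from limma's moderated t-test, which sets the difference between group means against the spread between these mice, partly pooled over genes. The filter was passed through the mean of 1 diet alone by 3 of the 53 genes without fenofibrate and 6 with it. Scripts were tested on simulated data. Promoters came from the RefSeq GRCm38.p6 table, which was matched by symbol. Settings tried were another pseudocount (0.1), filters, upper-quartile and quantile scaling, array weights, voom on the recovered reads, all 4 groups in 1 fit, unadjusted p-values, and leaving out each mouse. A gene of the interferon pathway counts in its list but is not reported here by name or in the plots.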

Additional observations from a re-analysis of the deposited data

Results flagged for a closer look

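In 7 of 104 gene and group combinations tested, 1 mouse stood apart from the rest of its group by the gap between its value and the nearest, measured against the group's range. Chance gives about 1 in 20 such groups. Ifih1 was high in Ctrl+FF mouse 1 at 2.03 FPKM, Ifit3 in B2D mouse 5 at 6.57 FPKM, Parp9 in Ctrl+FF mouse 2 at 8.28 FPKM, Gbp3 in Ctrl mouse 4 at 3.50 FPKM, Cxcl9 in Ctrl+FF mouse 2 at 2.66 FPKM and Cxcl10 in B2D+FF mouse 2 at 1.55 FPKM. Apol9b was low in Ctrl+FF mouse 4 at 7.16 FPKM. Of these genes, Ifit3 passed without fenofibrate and Apol9b passed with it, the comparisons that hold those mice.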

How the results depend on the processing

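No paired analysis was possible because the groups share no replicate numbers in the labels. Over 49 gene results and 853 settings, 687 kept their direction and side of the threshold, 99 lost the call, 45 gained it and 22 changed sign. The cause was not tested. The settings include an unadjusted p under 0.05, which every gene past the adjusted threshold must pass, so it could not lose a call. Some of the 45 gains come from that setting.

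Of the 53 genes, 11 passed without fenofibrate, against 1 with no filter, 3 with upper-quartile rescaling, 27 at an unadjusted p, and 1 to 12 when 1 mouse was left out. With fenofibrate 6 passed, against 12 with array weights, 3 at a mean of at least 5 FPKM or with no filter, 11 with voom, 19 unadjusted, and 3 to 10 when 1 mouse was left out. For the difference between experiments 0 passed in limma, and 4 at an unadjusted p. Of the other interferon genes, 7 passed without fenofibrate, against 12 with all 4 groups in 1 fit, 4 at 5 FPKM, 0 with no filter, 3 with upper-quartile rescaling and 29 unadjusted; leaving out 1 mouse gave 0 (Ctrl 2 or Ctrl 4), 2 (Ctrl 1 or B2D 4), 4 (B2D 2 or B2D 3) and up to 8. With fenofibrate 8 passed, against 4 at 5 FPKM, 2 with no filter and 29 unadjusted; leaving out 1 mouse gave 1 (Ctrl+FF 1 or 2), 2 (Ctrl+FF 3 or B2D+FF 4), 4 (B2D+FF 1) and up to 8. The median log2 fold change of the 53 was -0.33 without fenofibrate (-0.46 at 5 FPKM, -0.48 with a pseudocount of 0.1, -0.53 with voom, -0.40 to -0.31 leaving out 1 mouse) and -0.31 with it (-0.48 with a pseudocount of 0.1, -0.55 with voom, -0.39 to -0.25 leaving out 1 mouse).

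Signs changed for small log2 fold changes. Eif2ak2 without fenofibrate ran from -0.077 to 0.058 when 1 mouse was left out, above 0 without B2D mouse 1 or 4 or Ctrl mouse 5, and with fenofibrate from -0.16 to 0.038, above 0 without B2D+FF mouse 1. Ifit1 with fenofibrate was -0.18 with array weights, -0.17 with a pseudocount of 0.1, -0.0054 with upper-quartile rescaling and -0.20 with voom, and ran from -0.32 (without B2D+FF mouse 2) to 0.20, also below 0 without Ctrl+FF mouse 1, 3 or 4. Cmpk2 with fenofibrate was 0.030 with quantile normalization and ran from -0.23 to 0.086, above 0 without B2D+FF mouse 1 or 4 or Ctrl+FF mouse 2 or 3. Parp9 ran from -0.060 to 0.035, above 0 without B2D+FF mouse 1 or Ctrl+FF mouse 2, and Trim25 from -0.065 to 0.023, above 0 without B2D+FF mouse 1 or Ctrl+FF mouse 2 or 4. Members below the filter of 0.5 FPKM were tested only where a setting changed the filter or the libraries in the fit. None of them passed in a comparison where they were below it.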
